A study of Zea mays with 8 samples.

Results

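The maize GRF genes on this array were taken as the probe sets whose gene symbol or synonym is GRF followed only by a number. The rule found 12 probe sets of 8 genes, GRF2, GRF4, GRF5, GRF8, GRF11, GRF12, GRF13 and GRF14, among 1108 genes that the platform annotation names. That annotation lists them by LOC number, and the GRF names came from the synonyms of a RefSeq gene table (Zm-B73-REFERENCE-NAM-5.0). GRF13 (LOC100125643) and GRF8 (LOC100101540) have 3 probe sets each, numbered here 1 to 3 from the brightest to the dimmest, and the other 6 genes have 1 each.

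The samples were 4 pools of DpDf seedlings and 4 pools of their wild-type siblings, with 12 plants per pool, all in the B73 background and cut above the brace roots 11 days after planting. DpDf plants are heterozygous for the product of a translocation, T5-6b: their second chromosome 6 lacks its outermost short-arm chromomere and carries most of the short arm of chromosome 5, which is thereby present in 3 copies. Wild-type pools came from the same self-pollinated DpDf parents, and same-numbered pools of both genotypes were grown together. Replicates 1 and 3 share a seed source, as do replicates 2 and 4, and the genotype of each plant was read from a single marker near the chromosome 5 break. The comparison asks how this segmental imbalance alters transcript levels. Each value is a pool mean over all above-ground tissue, so fewer cells of a type and less RNA per cell cannot be told apart.

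Growth-regulating factors are plant transcription factors that carry a QLQ and a WRC domain. They act with the coactivators called GRF-interacting factors (GIF), and microRNA396 targets many of their transcripts. In leaves of Arabidopsis, rice and maize they are known for sustaining cell proliferation, which in a grass leaf is concentrated at the base. In maize, lower-case grf names were also given to 14-3-3 proteins: 2 of the 18 RefSeq genes with a GRF number are also named GF14, and neither is among the 8 genes on the array.

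Leaf markers were strong in these pools, with all 10 genes of the photosynthesis list on the array above the filter value of 27.0 (linear values of 1995 to 17406). The shoot meristem genes kn1 and lg3 were also above it, and 0 of 3 pollen, 1 of 5 embryo, 3 of 11 endosperm and 2 of 3 root markers were. Array medians ran from 135.9 to 142.4 linear units, and any 2 arrays correlated at 0.980 to 0.995 across tested probe sets. Probe sets with a mean under the 30th percentile, the filter value, were not tested, which left 12335 probe sets and 8 of the 12 GRF probe sets, covering 7 genes. GRF8 had no tested probe set.

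Of the 7 tested GRF genes, GRF13 alone was called different between the genotypes, and it was higher in DpDf. Its probe set 1 read 131.4, 125.7, 115.2 and 113.8 linear units in DpDf pools (in the order of replicates 1 to 4), where their wild-type siblings read 96.95, 96.27, 100.6 and 94.41. Every DpDf pool lay above every wild-type pool, as was true of 6.52% of tested probe sets. The log2 difference, DpDf minus wild type, was 0.32 (SE 0.074, limma adjusted p = 0.0359), a fold of 1.25 with a 95% interval of 1.12 to 1.40. GRF13 lies on chromosome 1, outside the duplicated arm.

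That made 1 of 8 tested GRF probe sets called, beside 4.87% of all tested probe sets (4.03% higher and 0.843% lower). When replicate number entered the model as a block (adjusted p = 0.0288 for GRF13 in limma) it was also 1 of 8, beside 10.2% (6.81% higher and 3.35% lower). By p, GRF13 ranked 531 among 12335 probe sets, and 9.87% of them had a difference at least as large in either direction. The interval on the log2 scale, 0.16 to 0.49, lay above 0 and below log2(3/2), 0.58, the ratio of 3 copies to 2. That ratio is given as a scale only, since GRF13 is outside the duplicated arm. A two-sided exact permutation test of the single probe set gave p = 0.0286, the smallest that 70 assignments allow. With the pairs kept together, exact sign flips gave p = 0.125, the smallest that 16 flips allow. The call did not survive the loss of any 1 of the 8 pools, with limma adjusted p of 0.0508 without DpDf replicate 4 to 0.118 without wild-type replicate 4, while the difference stayed between 0.28 and 0.35.

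Pair by pair, the log2 difference of GRF13 was 0.44, 0.38, 0.20 and 0.27 for replicates 1 to 4. The pairs therefore agreed in direction, which 15.0% of tested probe sets did upward, and differed in size. Within the seed source of replicates 1 and 3 the mean difference was 0.32, and within that of replicates 2 and 4 it was 0.33. The interaction of genotype with seed source was 0.010 (SE 0.15, limma adjusted p = 1.00) for GRF13.

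**Figure D1:**
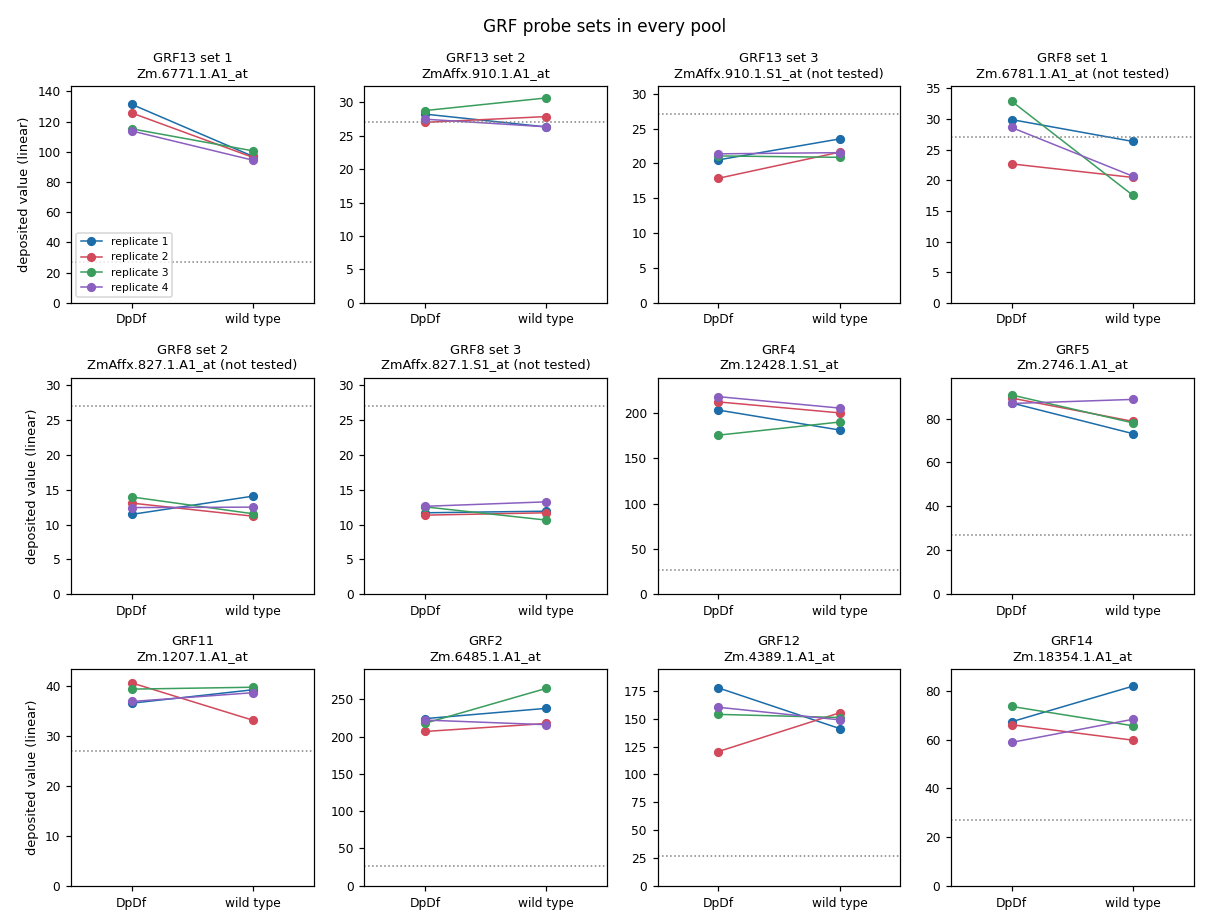
Deposited linear value of each GRF probe set (vertical axis, from 0) in DpDf pools at left and wild-type pools at right, with lines joining pools of the same replicate number and a dotted line at the filter value of 27.0. Probe set 1 of GRF13 is the one panel in which every DpDf pool lies above every wild-type pool.

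The other GRF13 probe sets gave dimmer readings that did not separate the genotypes. Probe set 2 read 28.22, 26.99, 28.75 and 27.46 in DpDf pools and 26.30, 27.85, 30.64 and 26.32 in wild-type pools, just above the filter value, and its log2 difference was 0.0064 (SE 0.090, limma adjusted p = 0.983). Probe set 3 read 20.51, 17.87, 21.08 and 21.38 in DpDf pools and 23.52, 21.62, 20.88 and 21.55 in wild-type pools, under the filter value, with a difference of -0.12. The annotation gives both the same source sequence, distinct from that of probe set 1, so the rise of GRF13 rests on 1 of its 3 probe sets. Brightness depends on the probes, so levels are not compared between probe sets.

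A measure of RNA quality also differed between the genotypes. The 3' minus 5' log2 difference was averaged over 7 maize control entries, in which actin and gapdh each appear more than once. This mean was 1.59, 1.42, 1.28 and 1.31 in the DpDf pools of replicates 1 to 4, and 1.09, 1.30, 1.08 and 1.24 in the wild-type pools. It averaged 1.40 ± 0.14 in DpDf and 1.18 ± 0.11 in wild type (SD, n = 4 each) and was higher in DpDf in all 4 pairs. An actin entry and a gapdh entry were not higher in every pair, while the other entries were. The DpDf pools with the highest values, replicates 1 and 2, also had the highest GRF13 signals. In wild type, replicates 2 and 4 had the highest values of the measure and the lowest GRF13 signals. With this measure as a covariate, GRF13 differed by 0.25 (SE 0.10, limma unadjusted p = 0.0391, adjusted p = 0.428), and 2.45% of probe sets were called in place of 4.87%. The measure is partly confounded with genotype, and its part in the result was not tested.

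The meristem markers kn1 and lg3 and the summed root markers were lower on average in DpDf pools. The cell cycle and replication list, given below, had 0 of 25 tested genes called with genotype alone and a median of -0.076. With the replicate block 1 was called lower, beside 3.35% of all tested probe sets. The meristem markers present, kn1 and lg3, differed by -0.29 and -0.53 on the log2 scale (limma adjusted p = 0.362 and 0.363). Under the replicate block the limma adjusted p was 0.0387 and 0.0492. With the 3' minus 5' covariate and no block it was 0.988 and 0.943. The summed level of kn1 and lg3 was 210.3 to 296.1 linear units in DpDf pools and 249.1 to 435.1 in wild-type pools, so the groups overlapped. The summed root markers, mostly the cysteine protease genes named mir3, ran from 1108 to 1267 in DpDf pools and from 1386 to 1429 in wild-type pools. These groups did not overlap, as for 4.80% of tested probe sets lower in DpDf. The brighter mir3 probe set differed by -0.11 and was not called in limma, and the dimmer differed by -0.53 and was called. The root marker mir1, at 7.44 linear units, was under the filter value. Leaf markers summed to 95178 to 106641 in DpDf pools and to 81315 to 99857 in wild-type pools. Their part in the GRF values was not tested.

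GRF8 is the GRF gene inside the duplicated arm. In gene order it follows 17 tested genes from the tip of chromosome 5, well before RPL19, the gene at position 51 that was the last of the arm called higher. Its probe set 1 read 29.89, 22.66, 32.89 and 28.60 in DpDf pools, against 26.32, 20.45, 17.54 and 20.65 in wild-type pools. DpDf was higher in each pair, by 0.18, 0.15, 0.91 and 0.47 on the log2 scale for replicates 1 to 4, but the groups overlapped, since DpDf replicate 2 lay below wild-type replicate 1. Among probe sets under the filter value, 5.98% were higher in DpDf in all 4 pairs.

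The mean log2 level of this GRF8 probe set was 4.82 ± 0.23 in DpDf and 4.39 ± 0.24 in wild type (SD, n = 4 each), a difference of 0.43 or 1.34-fold. An exact permutation test gave p = 0.0571 (two-sided; the smallest possible was 0.0286), and exact sign flips of the pairs gave p = 0.125, the smallest possible. In a limma fit without the filter the 95% interval ran from 0.096 to 0.76 and the adjusted p was 0.222 (0.138 with the replicate block), so GRF8 was not called, beside 3.11% of the 17621 probe sets in that fit (5.59% with the block). The interval held log2(3/2). Readings so near the filter value limit the size of any difference.

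The remaining GRF8 probe sets were dimmer still. Probe set 2 ranged from 11.47 to 13.97 linear units in DpDf pools and from 11.21 to 14.09 in wild-type pools, and probe set 3 from 11.36 to 12.63 in DpDf pools and from 10.65 to 13.27 in wild-type pools. Their log2 differences were 0.048 and 0.024, and neither separated the genotypes.

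The tested genes on either side of GRF8 in gene order both rose in DpDf. LOC542721, on the side of the tip, differed by 0.38 (SE 0.092, limma adjusted p = 0.0470) and tub4, a beta-tubulin gene on the other side, by 0.26 (SE 0.045, limma adjusted p = 0.00856). The 51 tested genes from the tip to RPL19 had a median of 0.47 and ran from -0.20 to 3.55. GRF8's untested difference was 0.43 on the log2 scale and 0.26 with 16 added to each value before log2. RPL19 was taken as the end of the set because it was the last gene called higher, so the set's median is a description only.

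**Figure D2:**
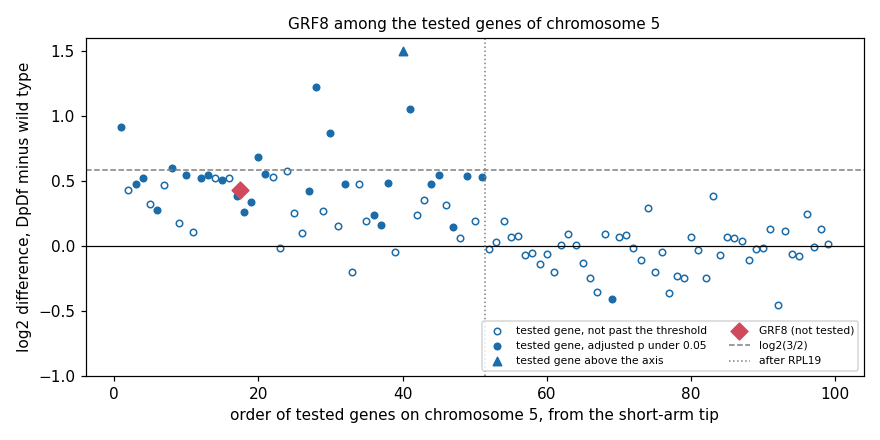
Log2 difference, DpDf minus wild type (vertical axis), of the tested genes of chromosome 5 in gene order from the short-arm tip (horizontal axis), with genes past the threshold filled and the untested GRF8 as a diamond. GRF8, at 0.43, or 0.26 with 16 added before log2, sits among the tipward genes, whose median up to RPL19 was 0.47.

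RefSeq gives GRF8 and GRF13 a shared synonym, atGRF2, after an Arabidopsis growth-regulating factor. Their differences were of like size but not in the same pairs. GRF13 differed most in replicates 1 and 2 (0.44 and 0.38) and GRF8 most in replicates 3 and 4 (0.91 and 0.47). GRF8's readings lay near or under the filter value, so the order of its pairs is uncertain. Probe sequences were not used here, and whether a GRF13 probe set also reads GRF8 transcript was not tested.

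GRF5, on chromosome 10, came next to GRF13 in size among the tested members. It read 87.10, 89.33, 90.73 and 86.86 in DpDf pools and 73.13, 78.73, 78.04 and 88.71 in wild-type pools. DpDf was higher in pairs 1 to 3 and slightly lower in pair 4, where the wild-type pool was high. The log2 difference was 0.16 (SE 0.079, limma adjusted p = 0.360), with a 95% interval of -0.021 to 0.33.

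GRF2 and GRF4, both on chromosome 2, were not called. GRF2 read 224.0, 206.8, 217.8 and 222.1 in DpDf pools and 237.8, 217.5, 264.6 and 215.9 in wild-type pools, a log2 difference of -0.10 (interval -0.28 to 0.080, limma adjusted p = 0.582). GRF4 read 203.2, 212.2, 175.5 and 218.0 in DpDf pools and 181.2, 200.1, 190.0 and 205.4 in wild-type pools, a difference of 0.055 (interval -0.13 to 0.25, limma adjusted p = 0.801). In both genes 1 pair went against the other 3, and the groups overlapped.

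GRF12 and GRF11, on chromosome 9, and GRF14, on chromosome 6, differed by less than the spread between pools. GRF12 read 177.7, 120.5, 153.9 and 160.3 in DpDf pools and 141.2, 155.3, 151.1 and 149.0 in wild-type pools: the DpDf pools spread over the whole range around tightly grouped wild-type pools. The log2 SD was 0.24 in DpDf and 0.058 in wild type (n = 4 each), and the difference was 0.024 (interval -0.23 to 0.28, limma adjusted p = 0.943). GRF11 read 36.65, 40.72, 39.47 and 36.99 in DpDf pools and 39.34, 33.22, 39.85 and 38.75 in wild-type pools, a difference of 0.028 (interval -0.18 to 0.24, limma adjusted p = 0.920).

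GRF14 read 67.28, 66.07, 73.57 and 58.81 in DpDf pools and 81.88, 59.73, 65.63 and 68.29 in wild-type pools. Its log2 difference was -0.047 (interval -0.30 to 0.21, limma adjusted p = 0.877), with 2 pairs higher and 2 lower. Chromosome 6 is also the one that loses its tip in DpDf plants, and 12 tested genes lie between GRF14 and that end.

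Across the 8 tested probe sets, 6 had a higher mean in DpDf, as did 42.8% of all tested probe sets, and their median difference was 0.026, beside -0.023 over all of these. All 8 intervals lay below log2(3/2), a ratio for the duplicated arm, which holds none of the tested GRF genes, and 7 held 0. With the exception of GRF13, 0 GRF probe sets reached an unadjusted p under 0.05 in limma. A rise of the size of GRF13's lay outside the intervals of GRF2, GRF4, GRF11, GRF12, GRF14 and probe set 2 of GRF13, and inside that of GRF5. GRF11 and probe set 2 of GRF13 read near the filter value, which limits the size of any difference there. The test of the interaction with seed source gave 0 of 8 probe sets with an unadjusted or adjusted p under 0.05, beside 0% of all tested probe sets at the adjusted threshold.

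**Figure D3:**
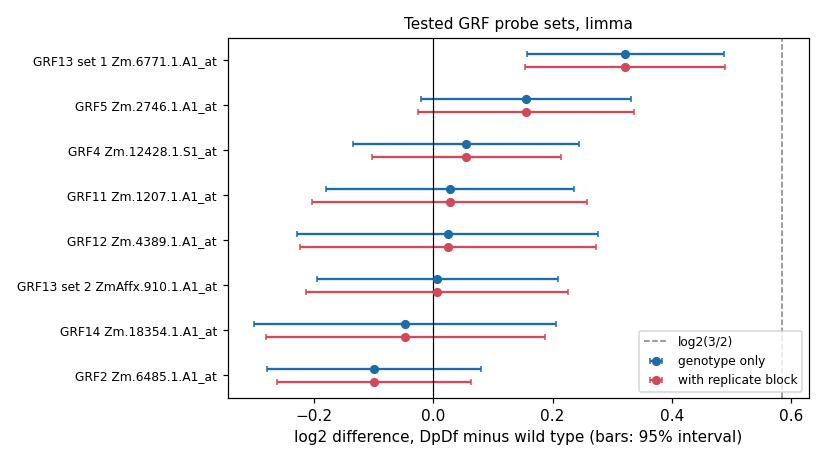
Log2 difference, DpDf minus wild type (horizontal axis), of the 8 tested GRF probe sets with 95% intervals, from the limma fit with genotype only and from the one that adds a replicate block. Probe set 1 of GRF13 alone has an interval above 0, from 0.16 to 0.49. No interval reaches the dashed line at log2(3/2), the ratio for the duplicated arm, which holds none of these genes.

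Likeness to other genes was measured as the root mean square distance between log2 profiles, each centred on its own mean, over 918 other genes. PP2C (0.056) on chromosome 4, then tbp2 (0.071) and tub4 (0.073) on chromosome 5, came closest, against a median distance of 0.23 and a spread of GRF13's own profile of 0.17. Most of GRF13's profile is its gap between the genotypes, so genes chosen for lying near it are higher in DpDf by that choice: PP2C and tbp2, which encodes a TATA-binding protein, each differed by 0.34. In gene order tub4 and tbp2 are the first and second tested genes after GRF8. All profiles share the same 8 arrays, so distances between genes are not independent.

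GRF2's nearest genes included dnp2, which RefSeq also lists as DP2 (0.058), and PCNA, the replication clamp (0.059), after LOC542160 (0.048), beside a spread of its own of 0.10. GRF12 was nearest to serk1, a receptor kinase gene (0.063, own spread 0.15). GRF4 was nearest to arpp2b (0.058), GRF5 to IDI2 (0.063), GRF11 to mad2 (0.040) and GRF14 to mpk6 (0.066). None of the genes named so far in this paragraph was called in limma. TCTP on chromosome 5, the next nearest to GRF5 after IDI2 (0.064), was called higher in DpDf (0.15, SE 0.030, limma adjusted p = 0.0211).

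The tested neighbours of GRF13 on chromosome 1 had a lower mean in DpDf, and neither was called. kip, before it in gene order, differed by -0.14 (SE 0.092, limma adjusted p = 0.505) and GB1, after it, by -0.094 (SE 0.073, limma adjusted p = 0.567). Around the other members outside chromosome 5, 0 of the 12 flanking genes were called in limma, beside 4.87% of tested probe sets. With the replicate block 1 was, abcf1 next to GRF2 (0.27, adjusted p = 0.0428), beside 10.2%. Among the 12 opr1, next to GRF11, had the largest positive difference, 0.63 (SE 0.37), and por2, next to GRF5, the largest negative one, -0.51 (SE 0.49).

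The GRF-interacting factors were measured for 3 genes, and 0 were called. GIF1, also named AN3, read 101.9, 87.13, 90.10 and 96.86 in DpDf pools and 97.64, 93.73, 118.6 and 108.7 in wild-type pools, a log2 difference of -0.15 (SE 0.095, limma adjusted p = 0.466). DpDf was lower in pairs 2 to 4 and higher in pair 1. GIF2 read 426.9, 412.6, 404.5 and 432.0 in DpDf pools and 413.0, 413.7, 413.9 and 455.5 in wild-type pools, a difference of -0.016 (SE 0.062, limma adjusted p = 0.929).

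GIF3 read 412.1, 437.7, 473.6 and 482.0 in DpDf pools and 414.4, 426.9, 513.0 and 494.0 in wild-type pools, a difference of -0.031 (SE 0.090, limma adjusted p = 0.904). The spread of GIF3 followed the replicate numbers in both genotypes, with replicates 3 and 4 above replicates 1 and 2. Intervals of GIF2 and GIF3 reached no further than -0.15 to 0.12 and -0.23 to 0.17. The name search for this list also covered MIR396 genes and found none on the array, so the microRNA was not measured here.

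Further lists covered processes in which GRF genes act. Of 10 tested genes in the KNOX, leaf polarity and leaf pattern list, none passed with genotype alone in the model (0 higher, 0 lower). The mean was lower in DpDf for 8 (median -0.15). The smallest p values belonged to rs2, a repressor of KNOX genes, at -0.15 (limma adjusted p = 0.251) and rld1, a leaf polarity gene, at -0.33 (limma adjusted p = 0.301). Over all tested probe sets 42.8% had a higher mean, and 0.843% were called lower. With the replicate block 4 of the 10 were lower past the threshold, beside 3.35% of all. These were rld1, rld2, kn1 and lg3. The fit with the 3' minus 5' covariate held no replicate block and called none of them (limma adjusted p of 0.943 to 0.988). Genotype alone called none of them either, so that fit cannot tell whether the covariate would change the block's calls. The probe sets of rld1 and rld2 share a name stem, and whether they read these genes apart was not tested. Of 25 tested genes in the cell cycle and replication list, 0 passed and the mean was lower for 18 (median -0.076), with orc2, an origin recognition complex gene, at -0.37 (adjusted p in limma 0.0764, or 0.0375 under the replicate block) and dnp1, also named DP1, at 0.18 (limma adjusted p = 0.294). In that list 6 genes matched through krp names, which here denote kinesins, and 1 through cks, which here is a gene also named kds1 and KDSB.

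Among 11 tested expansins, cell wall loosening proteins, 0 passed with genotype alone and the mean was lower for 9 (median -0.095). expB4 differed by -0.33 (limma adjusted p = 0.0954) and expa1 by -0.18 (limma adjusted p = 0.179). The replicate block gave 1 higher and 2 lower calls among them, beside 6.81% higher and 3.35% lower over all tested probe sets. The gibberellin list held 4 tested genes, with 0 called and a median of 0.022. eks1, a kaurene synthase gene, differed by -0.24 (limma adjusted p = 0.302) and an1, which acts one step before it, by 0.079 (limma adjusted p = 0.760). The list's name pattern also took in the homeobox gene Hox2b.

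For the 14-3-3 meaning of the name, 4 genes for known client proteins were tested and no 14-3-3 gene was among them. 1 of the 4 was called, lower in DpDf, beside 0.843% of all tested probe sets. This gene, mha1, for a plasma membrane proton pump, read 58.75, 59.94, 74.40 and 59.87 in DpDf pools and 121.5, 79.21, 113.9 and 89.04 in wild-type pools. The groups did not overlap, as for 4.80% of tested probe sets lower in DpDf, and the log2 difference was -0.66 (SE 0.15, limma adjusted p = 0.0315, and 0.535 with the 3' minus 5' covariate). mha4, of the same family, differed by -0.15 (limma adjusted p = 0.245). The median of the 4 was -0.12.

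**Figure D4:**
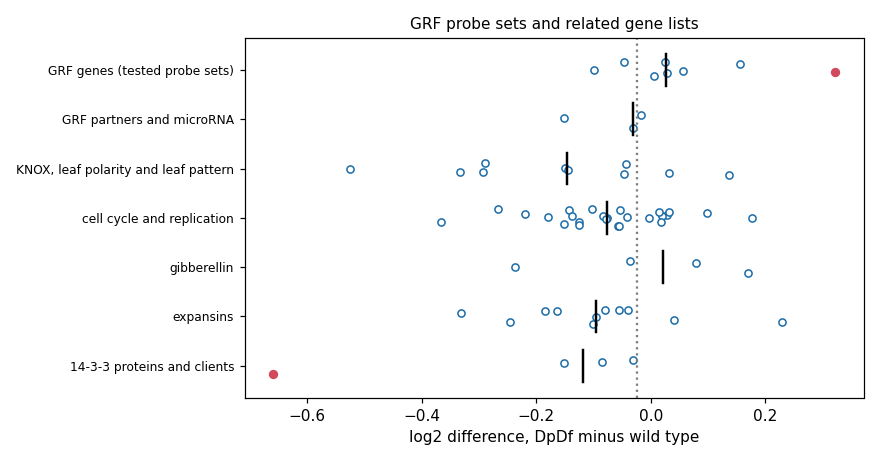
Log2 difference, DpDf minus wild type (horizontal axis), of the tested GRF probe sets and of the genes in 6 related lists, 1 probe set a gene, with called ones filled, list medians as vertical bars and the median of all tested probe sets, -0.023, dotted. GRF13 at 0.32 and mha1 at -0.66 are the called points.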

How the data were processed

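RNA of 8 seedling pools was hybridised to an Affymetrix maize array. The authors deposited 1 linear intensity for each probe set on each array. MAS5 is named, with no role or version, per the submitters' processing notes. How arrays were scaled was not given in the sources used here, and log2 was taken with no further normalization. Controls (113 of 17734 probe sets) were dropped. Probe sets under the 30th percentile of mean log2 (27.0 linear) were not tested. limma 3.58.1 in R 4.3.3 (lmFit, eBayes with trend) was fitted over all 12335 others on genotype alone, with Benjamini-Hochberg adjustment. The threshold was an adjusted p of 0.05, and the procedure was tested on simulated data. The simulated noise was independent between pools, so that check did not cover pools that share a sowing. The number of arrays limits the precision. A gene in a list was read by its brightest tested probe set.

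Same-numbered pools share a sowing, per the labels' protocols, and their deviations from group means correlated at 0.36, 0.51, 0.56 and 0.33 for replicates 1 to 4, so the numbers pair the samples. Members and lists were chosen with earlier results of these data known. Named genes were all GRF probe sets, the 3 nearest profiles and the flanking tested genes of each member, and in each list the called genes and the 2 with the smallest p; not all are printed. Alternatives covered the replicate and seed source blocks, normalization, a pseudocount of 16, the filter, the variance trend, the 3' minus 5' covariate and leaving out each pool. Sequences are not used here.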

Additional observations from a re-analysis of the deposited data

Results flagged for a closer look

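In GRF11, wild-type replicate 2 stood apart from the rest of its group, at 33.22 linear units beside 39.34, 39.85 and 38.75 in wild-type replicates 1, 3 and 4. Its gap to the nearest pool was 0.846 of the group's log2 range, above Dixon's critical value for 4 samples. Of 24 groups checked, 1 passed, and chance passes about 5% of groups. Without that pool the GRF11 difference was -0.033 in place of 0.028, neither of them called.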

How the results depend on the processing

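The GRF13 difference kept its direction under every alternative that tested it, and its call under 6 of 16, with an adjusted p of 0.0187 to 0.428 over all of them. It was 0.32 without the filter (adjusted p = 0.0681), 0.25 with the 3' minus 5' covariate, and 0.28 to 0.35 when 1 pool was left out, each time past the threshold no longer. A filter at the 50th percentile left GRF13 untested. The count of GRF probe sets called was therefore 0 in place of 1 without the filter, with the stricter filter, with the covariate and without any 1 pool (0 to 0). The replicate block, which rests on shared sowings, left that count at 1 and changed no call of a GRF probe set.

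With the covariate, GRF4, GRF12 and GRF14 changed sign, to -0.034, -0.064 and 0.040. Leaving out 1 pool gave -0.033 to 0.054 for GRF11, -0.052 to 0.13 for GRF12, -0.019 to 0.055 for probe set 2 of GRF13 and -0.11 to 0.039 for GRF14. None of these values was called. The replicate block gave 4 calls in the KNOX and leaf pattern list, 1 in the cell cycle list and 3 among expansins, in place of 0 each, and the seed source block gave 1 in the KNOX list. With the covariate, fitted without a block, each of these lists had 0 calls, as with genotype alone. Leaving out 1 pool gave 0 to 1 in each of these lists and in the 14-3-3 client list, where the stricter filter and the covariate gave 0 in place of 1. The cause was not tested. Signals near the filter value limit what can be read from GRF8, GRF11 and the dimmer GRF13 probe sets.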
